A study of Homo sapiens with 6 samples.

Results

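The genes described here are 8 members of the activin and inhibin system, taken from the 15917 genes listed in the authors' table for *RBMS3* knockdown in MDA-MB-231 cells. They are the ligand chains *INHBA* and *INHBB*, the antagonists *FST* and *FSTL3*, the type I receptors *ACVR1* and *ACVR1B*, and the type II receptors *ACVR2A* and *ACVR2B*. The set was chosen by the size of the change that the authors' own comparison gives for *INHBB*, and its members were then found by symbol. All 8 are listed. The values of that comparison are not used here, so the text describes levels and sequences and draws nothing about a change upon knockdown.

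MDA-MB-231 is an established triple-negative breast cancer line. Total RNA was sequenced in 6 libraries, 2 from cells with the control hairpin (shCTRL), 2 from cells with hairpin shRBMS3-B3 (labelled RBMS3 KD1) and 2 from cells with hairpin shRBMS3-C3 (labelled RBMS3 KD2). Per the methods, the hairpins were delivered by lentivirus into luciferase-labelled cells that were then selected with puromycin, which the control cells share. The table holds one mean normalized count over libraries per gene, as read from the column name, and no value for any one library. How the counts were normalized is not given in the sources used here. The table also holds the authors' comparison of knockdown with control cells, which is left aside here. In the mean, control and knockdown cells cannot be separated, and the spread between replicates and the depth of each library cannot be read from it, so no test was made. A figure legend of the study names fewer knockdown libraries than the labels do, so the mean may leave out some libraries, possibly all of one hairpin. The 8 levels are thus each a single number without an error, and the order of neighbouring genes cannot be weighed against replicate spread.

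Activins are secreted dimers of inhibin beta chains and belong to the TGF-β superfamily. The ligand binds a type II receptor kinase, which recruits and phosphorylates a type I receptor kinase, and the type I receptor in turn phosphorylates SMAD2 and SMAD3. Follistatin and follistatin-like 3 bind activin outside the cell and block its access to receptors. Inhibins, which pair a beta chain with the alpha chain encoded by *INHA*, oppose activin by occupying type II receptors.

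To place the members beside the element that the study links to RBMS3, their 3′UTRs were searched for the AUA motif, a pattern of 7 bases that reads A, G or T, then A or T, then ATA, then A or T, then A. The motif can hold the polyadenylation signal AATAAA, which directs cleavage and polyadenylation of most mRNAs, as its last bases. The sequences below were chosen to show both kinds of match, and give the match in capitals with up to 10 bases of the 3′UTR on each side, 5′ to 3′ on the transcript strand. Both matches of *INHBB* and the single match of *FSTL3* hold AATAAA. For *INHBA*, *FST* and *ACVR1*, the match nearest the stop codon and the match nearest the transcript end are given.
INHBB match 1, chr2:120351672-120351698, plus strand: tatgtttattTAATAAAgctcccctta
INHBB match 2, chr2:120351774-120351800, plus strand: cagtttaagaAAATAAAagattgagtg
FSTL3 match 1, chr19:683362-683385, plus strand: ctcaccaaggAAATAAAgactcaa
INHBA match 1, chr7:41689068-41689094, minus strand: cacacattacATATATAcacatactgg
INHBA match 13, chr7:41685123-41685149, minus strand: gccttatgttAAATAAAaagacctgtt
FST match 1, chr5:53486101-53486127, plus strand: aaaaaaagaaAAATATAttgtccatac
FST match 9, chr5:53487100-53487126, plus strand: atgagtgaaaAAATAAAaaaattttaa
ACVR1 match 1, chr2:157736625-157736651, minus strand: tgacaccaccGAATATAttactgattt
ACVR1 match 3, chr2:157736452-157736478, minus strand: tgtataaattAAATAAActgttttcaa
Coordinates are those of GENCODE release 44 on hg38, the build that the submitters' processing notes name, and each window is 3′UTR sequence in the transcript that represents its gene.

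The antagonists had the highest levels of the group. The authors' mean normalized count was 1254 for *FST* (ENSG00000134363), which encodes follistatin, and 613.7 for *FSTL3* (ENSG00000070404). Since longer transcripts yield more fragments, levels were set beside those of other genes after division by the length of a representative transcript. On that scale *FST* stood at 545.5 and *FSTL3* at 245.4 mean normalized counts per kb, a ratio of 2.22 that fell to 1.56 per kb of coding sequence. They were the only members above the median of listed protein-coding genes, which was 152.3 per kb of transcript. Of these genes, 81.4% had a lower level per kb than *FST* and 63.2% a lower level than *FSTL3*. *FST* is at chr5:53480626-53487134, plus strand, and *FSTL3* at chr19:676392-683392, plus strand.

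The ligand chains lay far apart from each other. *INHBB* (ENSG00000163083), the beta B chain, had a mean normalized count of 244.3, and *INHBA* (ENSG00000122641), the beta A chain, one of 46.2. Per kb of transcript the level was 76.2 for *INHBB* and 7.65 for *INHBA*, a ratio of 9.96. *INHBB* was the gene chosen for its change in the authors' comparison. Its mean, and each comparison with it here, thus blends control and knockdown cells and may hold in neither. Of listed protein-coding genes, 31.9% had a lower level per kb than *INHBB* and 2.30% a lower level than *INHBA*. Per kb of coding sequence the levels were 200.1 and 36.2, and the ratio was 5.53, as the *INHBA* transcript carries a 3′UTR of 4536 bases against 1929 bases in *INHBB*. *INHBA* had the lowest level of the 8 on every scale. Its mean normalized count was not far above 26.7, the lowest of any listed gene, and its percentile and ratios rest on that low value. *INHBB* has a single annotated transcript of 2 exons and 3206 bases at chr2:120346136-120351803, plus strand. *INHBA* is at chr7:41667168-41705834, minus strand. Its gene span, introns included, overlaps that of the antisense gene *INHBA-AS1*, which is not listed, over 11951 bases.

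Among the 8 members, antagonist transcripts outweighed ligand transcripts in sum. The sum of ligands leaves out *GDF11*, a further ligand chain that is listed at 65.5 per kb of transcript. *FST* and *FSTL3* together reached 790.8 mean normalized counts per kb of transcript, and *INHBA* and *INHBB* together 83.9, a ratio of 9.43. The ratio was 8.43 per kb of coding sequence. *FST* alone exceeded *INHBB* by a factor of 7.16 and *FSTL3* exceeded it by a factor of 3.22 per kb of transcript. These are ratios of RNA levels in a mean over libraries, and say nothing of secreted protein. As they include *INHBB*, they may differ between control and knockdown cells, which was not tested.

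**Figure D1:**
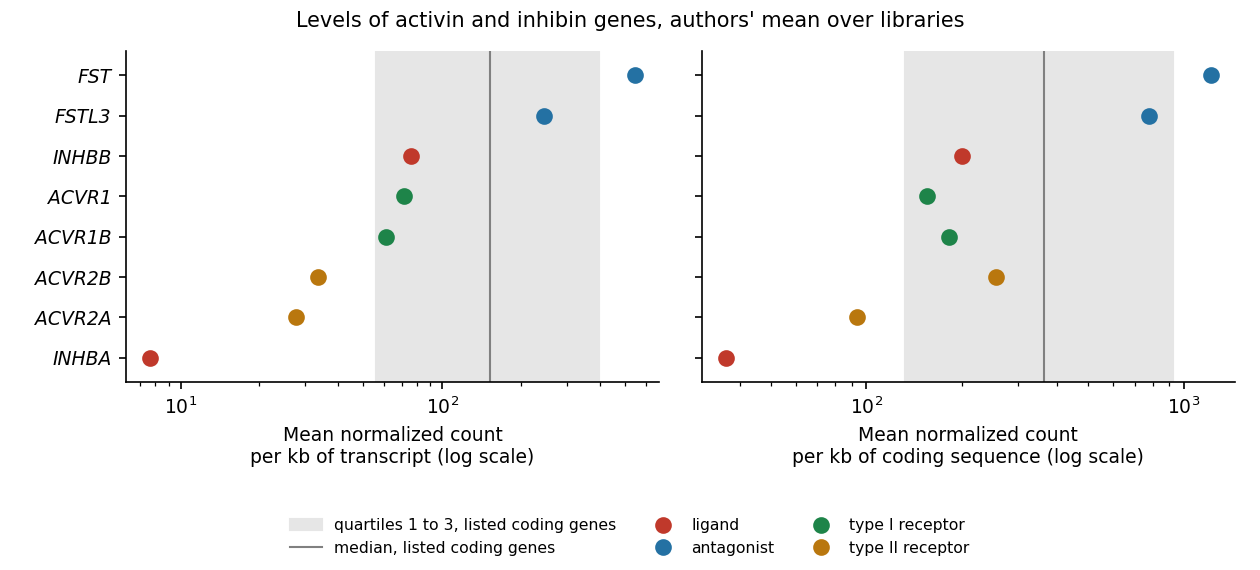
Mean normalized count of each member (one point per gene, the authors' mean over libraries, no error available) per kb of transcript (left) and per kb of coding sequence (right), on log axes, with the median and quartiles 1 to 3 of listed protein-coding genes in grey. *FST* and *FSTL3* lie above the median on both scales, *INHBA* is lowest on both, and *ACVR2B* moves from 33.5 to 256.9.

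The type I receptors had levels close to that of *INHBB*. *ACVR1* (ENSG00000115170), also known as ALK2, which mainly serves bone morphogenetic proteins and can bind activin A, had a mean normalized count of 237.3. *ACVR1B* (ENSG00000135503), also known as ALK4, the principal type I receptor for activin, had one of 275.4. Per kb of transcript, *ACVR1* stood at 71.2 and *ACVR1B* at 60.8. This order turned per kb of coding sequence, to 155.4 and 181.8, and also with the longest annotated transcript of each gene, to 53.5 and 60.8. No order between the type I receptors can therefore be given. *ACVR1* is at chr2:157736251-157876330, minus strand and has 26 annotated transcripts, the most of the 8. *ACVR1B* is at chr12:51951699-51997078, plus strand.

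The type II receptors were below both type I receptors per kb of transcript. *ACVR2A* (ENSG00000121989) had a mean normalized count of 144.2 and *ACVR2B* (ENSG00000114739) one of 394.6. Both encode receptor kinases that bind activins and several related ligands. Per kb of transcript the levels were 27.7 for *ACVR2A* and 33.5 for *ACVR2B*. The *ACVR2B* transcript is 11782 bases long, of which 9810 are 3′UTR, and its level depended on the length used more than that of any other member. Per kb of coding sequence *ACVR2B* stood at 256.9 and *ACVR2A* at 93.7, a ratio of 2.74 in place of 1.21. *ACVR2B* thereby moved from rank 6 to rank 3 of the 8. The summed type I receptor level was 2.16 times the summed type II level per kb of transcript and 0.962 times it per kb of coding sequence. *ACVR2A* is at chr2:147844517-147930826, plus strand. Its gene span shares 431 bases with that of *ORC4* on the opposite strand, which is listed. It also shares 3556 bases with that of the long noncoding RNA gene ENSG00000223911, also on the opposite strand, which is not listed. The spans include introns, so the shared bases need not be in the mature transcripts. Whether the authors counted by strand is not given in the sources used here, so any reads of these bases cannot be told apart. *ACVR2B* is at chr3:38453890-38493142, plus strand. Its gene span shares 931 bases with that of the antisense gene *ACVR2B-AS1*, which is not listed.

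The rest of the pathway was described from a list of 39 genes, of which 21 are listed in the table and 18 are not. A gene that is not listed can have been left out for a low mean or for other reasons, and is not shown to be absent from the cells. *INHA*, the alpha chain that every inhibin needs, is not listed, nor are the beta chains *INHBC* and *INHBE*. Of the 8 further ligand chains, *GDF11* alone is listed, at 65.5 mean normalized counts per kb of transcript. *GDF11* uses the same type II receptors as activin, and its level lay between those of *ACVR1B* and *ACVR1*. *ACVR1C*, the other type I receptor for activin B (ALK7), is not listed, and neither is *ACVRL1*. Of the 8 members, only *FST* exceeded *TGFBR2*, the type II receptor for TGF-β, which stood at 442.1 per kb of transcript. Its type I partner *TGFBR1* stood at 135.8.

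The remaining listed genes covered both sides of the members' range. *FURIN*, a convertase that cleaves the precursors of TGF-β family ligands, stood at 155.3 per kb of transcript. The inhibin co-receptor *TGFBR3* (betaglycan) stood at 45.2, and the pseudoreceptor *BAMBI*, which lacks the kinase domain, at 70.9. *SMAD3* stood at 586.6 and *SMAD2* at 35.6, but the representative transcript of *SMAD2* is 34626 bases long, and its mean normalized count was 1232. The common partner *SMAD4* stood at 50.1 and the inhibitory *SMAD7* at 27.2. Of the 21 listed pathway genes, 7 lay above the median of listed protein-coding genes per kb of transcript, as did 2 of the 8 members. The median was 88.8 per kb over the 21 genes and 66.0 over the members. These counts describe the lists and were not tested.

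**Figure D2:**
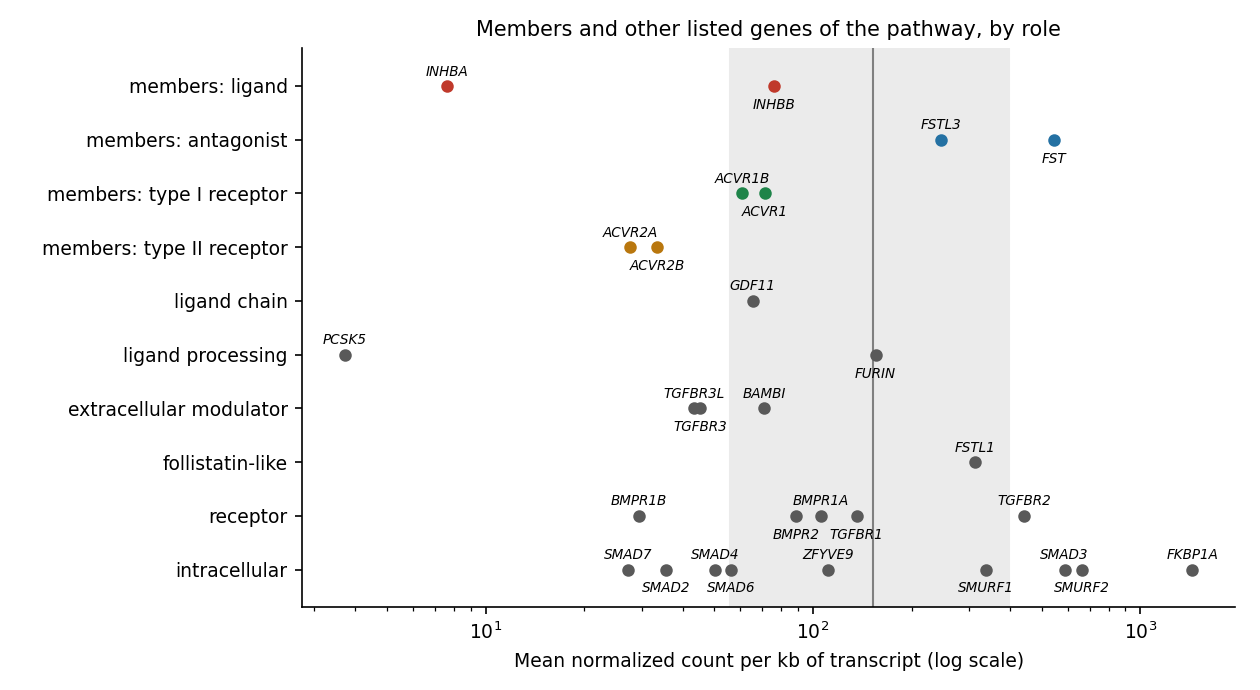
Mean normalized count per kb of transcript (log axis, the authors' mean over libraries) of the 8 members in colour and of the 21 other listed pathway genes in dark grey, in rows by role, with the median (line) and quartiles 1 to 3 (band) of listed protein-coding genes. The antagonist *FST* lies at 545.5, close to *SMAD3* at 586.6, and the ligand *INHBA* at 7.65 is undercut by *PCSK5* at 3.72.

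As a check of the label, *VIM* and *CD44*, which are high in mesenchymal breast cancer lines, had mean normalized counts of 69335 and 10047, and per kb of transcript lay above 99.9% and 95.0% of listed protein-coding genes. Of the epithelial or luminal genes, the hormone receptors *ESR1* and *PGR* are not listed. *CDH1* had a mean normalized count of 31.6 and lay above 1.68% of these genes per kb, and *EPCAM* had one of 107.2 and lay above 29.8%. *ERBB2*, with a mean normalized count of 1557, lay above 71.3%, so that this gene of the list was not low. *RBMS3* itself had a mean normalized count of 271.5, or 32.1 per kb of transcript. On the latter scale it was close to *ACVR2B*, whose mean normalized count was higher, at 394.6. The *RBMS3* mean includes cells with hairpins against it and is not the level in control cells. The knockdown was not checked here, since the authors' comparison was not used and the mean does not separate the groups.

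Each of the 8 members had at least 1 AUA match in its 3′UTR, as did 84.8% of the 12350 listed genes with an annotated 3′UTR. The number ran from 1 in *FSTL3* and 2 in *INHBB* to 33 in *ACVR2B*. *ACVR1* had 3 matches, *ACVR1B* 5, *FST* 9, *ACVR2A* 10 and *INHBA* 13. The 3′UTRs also differed in base composition. *FSTL3* has the most G and C, with 38.8% A+T in its 3′UTR, a value below which only 4.83% of listed genes lie. *FST* has the most A and T, at 68.1%, and 89.7% of listed genes lie below it.

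When 3′UTR length was used to sort listed genes into 10 bins of equal size, *FST* stood above its bin and *INHBB* and *FSTL3* low in theirs. The bin of *FST* and *ACVR1*, from 984 to 1378 bases, had a median of 3 matches with quartiles of 1 and 5, so that *FST* with 9 lay above the upper quartile and *ACVR1* with 3 at the median. The bin of *INHBB*, from 1853 to 2481 bases, had a median of 5 and quartiles of 2 and 9, which put *INHBB* at the lower quartile. *FSTL3* with 1 match was at the lower quartile of its bin as well, where the median was 3. In the bin of the longest 3′UTRs the median was 16 with an upper quartile of 26, and *ACVR2B* with 33 lay above it, although its 3′UTR exceeds the median length of 6287 bases there. *INHBA* and *ACVR2A* share a bin with a median of 9 matches, and *ACVR1B* with 5 lay below the median of 7 in its own. Per kb of 3′UTR the densities were 8.17 for *FST*, 3.36 for *ACVR2B*, 1.04 for *INHBB* and 0.596 for *FSTL3*, against a median of 2.43 over listed genes. Counts and densities of members and listed genes include overlapping matches, and *FST* had 6 matches when counted without overlap.

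**Figure D3:**
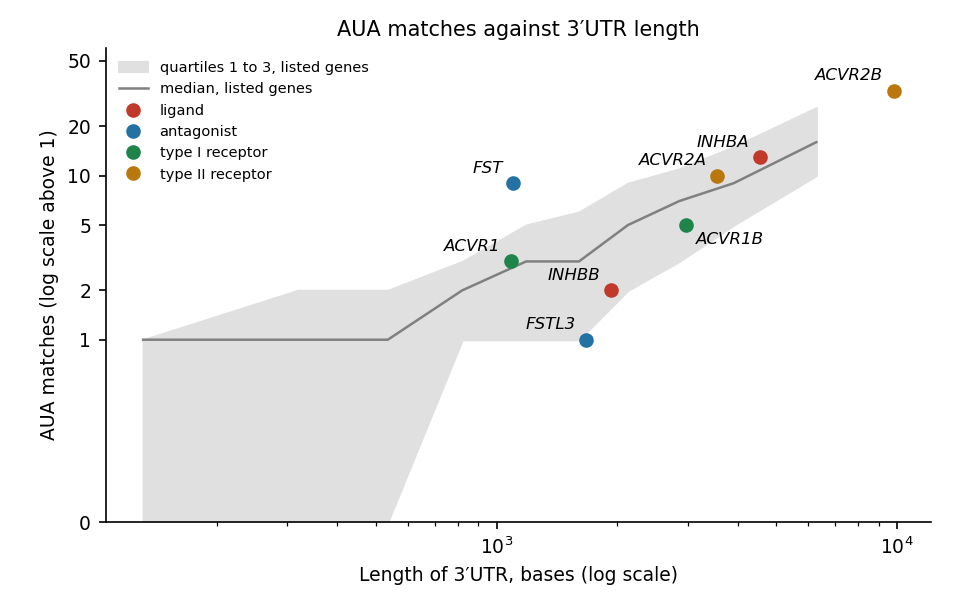
AUA matches in the 3′UTR (log axis above 1) against 3′UTR length in bases (log axis) for the 8 members, one point per gene, over the median (line) and quartiles 1 to 3 (band) of 10 bins of the 12350 listed genes, each drawn at the median length of its bin. *FST* with 9 matches and *ACVR2B* with 33 lie above the upper quartile of their bins, and *INHBB* with 2 and *FSTL3* with 1 at the lower quartile of theirs.

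Part of these matches hold the polyadenylation signal. The paper reports AATAAA as the most significant motif among its RBMS3 binding sites. The split below therefore does not set such matches apart from RBMS3 binding. Of the 76 matches in the members, 24 (31.6%) hold AATAAA, against 36.0% of the 71509 matches over all listed genes. In 7 of the 8 members such a match ends within 50 bases of the annotated transcript end, as in 52.8% of listed genes. The exception is *ACVR1B*, whose last match, 53 bases from the end, does not hold AATAAA. The single match of *FSTL3* ends 7 bases before the transcript end. The 2 matches of *INHBB*, printed above, end 115 and 13 bases before it. *INHBB* and *FSTL3* thus have no match without AATAAA, while the other 6 members have between 2 and 26. Over listed genes, 62.4% have at least 1 match that does not hold AATAAA. In the bin of *INHBB* 81.1% do, and in that of *FSTL3* 71.5%. The bins match length and not base composition. The 3′UTR of *INHBB* has 50.3% A+T, and 29.7% of listed genes lie below it.

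The other matches were spread differently between the members. In *INHBA* 4 of the 8 matches without AATAAA lie between 1393 and 1432 bases after the stop codon and form overlapping pairs. In *FST* 6 of the 7 lie between 972 and 1032 bases after the stop codon, in the last part of a 3′UTR of 1101 bases, and the remaining one lies 78 bases after it. The 6 also form overlapping pairs. In *ACVR2B* overlapping matches in TA repeats make up part of the 33, and 21 remained when matches were counted without overlap. *ACVR2A* kept all 10 matches when counted without overlap. A match is a pattern of letters and not a measured binding site, and no match was compared with binding data.

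**Figure D4:**
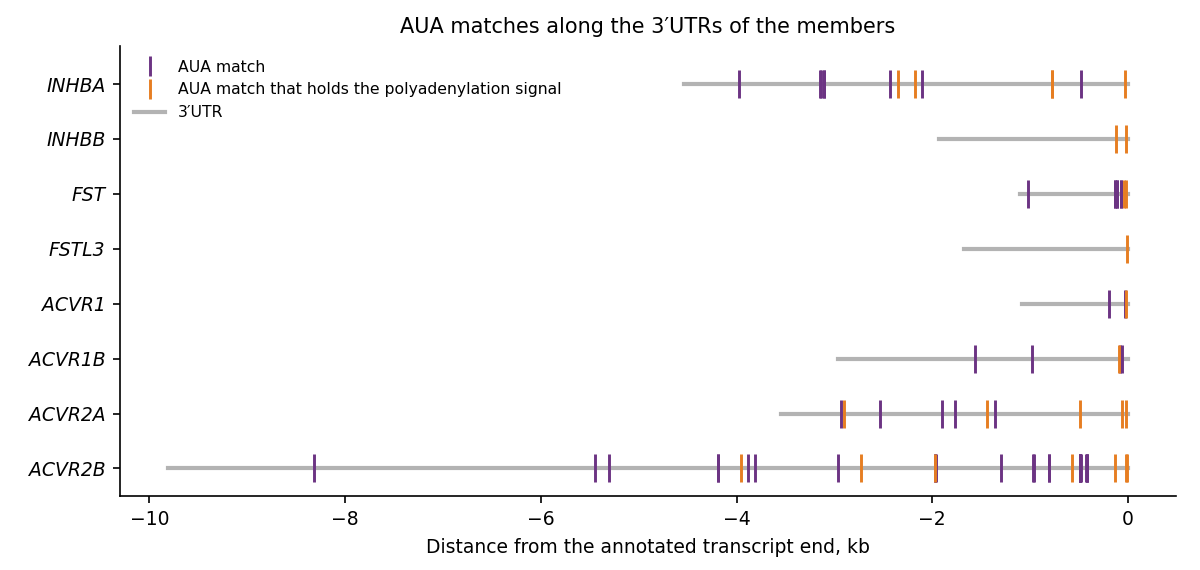
Position of each AUA match (tick) along the 3′UTR (grey line) of the 8 members, as distance in kb from the annotated transcript end, with matches that hold the polyadenylation signal in orange and the others in purple. Both ticks of *INHBB* and the one of *FSTL3* are orange and near the end, while *ACVR2B* has 26 purple ticks over 9810 bases, several of which overlap in the drawing.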

How the data were processed

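Libraries were made with a kit for strand-specific total RNA from small amounts, including depletion of ribosomal cDNA, and sequenced as paired ends. The submitters' processing notes name Salmon, DESeq2 and hg38, with versions and roles not given in the sources used here. The authors deposited one table with, for each gene, a signal, the mean normalized count over libraries. The other 5 numeric columns hold the authors' own comparison (log2 fold change, its standard error, test statistic, p-value and adjusted p-value) and were not used. No depth can be derived from a mean, and the count test foreseen in the design could not be run without values per library.

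Ensembl identifiers were matched to GENCODE release 44, which contains 15829 of the 15917 identifiers, among them 12408 protein-coding genes. Each gene was represented by its MANE Select transcript or, failing that, its Ensembl canonical transcript or the one with most coding bases. The 3′UTR began after the stop codon and was used from a length of 7 bases. AUA matches were counted with overlaps on the transcript strand only. For each member, the windows of the matches nearest the stop codon and nearest the transcript end were read again from hg38. Of these 15 windows, which include those printed above, 15 were equal. Quartiles and percentages are over listed genes.

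The members and gene lists were chosen with earlier results of these data known. The genes named are the 8 members, the pathway list, the cell line markers and *RBMS3*. Levels per kb assume that fragments come from the whole representative transcript. The functions were tested on simulated data. Python 3.11.15, numpy 2.4.6, pandas 2.3.3 and matplotlib 3.10.9 were used.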

Additional observations from a re-analysis of the deposited data

How the results depend on the processing

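No paired analysis was possible because only a mean over libraries was at hand for each gene. For the same reason the replicate block, leaving out each replicate and the test with another tool were not run, and protein identity between members was not computed because no protein table was used. The number of members above the median of listed protein-coding genes was 2 per kb of transcript, per kb of coding sequence, with the longest transcript and without division by length. By mean normalized count, 3 members exceeded the median of all listed genes and 2 that of protein-coding genes, *ACVR2B* being the difference. The 76 AUA matches were 77 with the longest 3′UTR of each gene, 58 without overlaps and 52 without those that hold AATAAA, the last chosen after seeing the data. Levels of single members moved under 18 of 24 alternatives of length and stayed equal under 6. Coding length and no division change the unit of all 8 levels. The longest transcript keeps it, and moved *FST* from 545.5 to 494.1 and *ACVR1* from 71.2 to 53.5, below *ACVR1B* at 60.8. Depth limits every value in a way that cannot be measured here, and *INHBA*, with the lowest mean, rests on the fewest normalized counts of the 8.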
